A study of Mus musculus with 12 samples.

Results

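The mouse genome carries 39 Hox genes in the HoxA (chromosome 6), HoxB (chromosome 11), HoxC (chromosome 15) and HoxD (chromosome 2) clusters, and their transcripts were followed in spinal cord RNA from 12 mice. The members were the rows of the deposited expression table whose symbol is Hox, a cluster letter from a to d and a number, with antisense transcripts left out. This rule found 40 rows among 36121; Hoxd4 had 2 rows, of which the row with the higher mean was kept, leaving 39 members. Of these, 32 averaged 1 TPM or more across the libraries and were tested, among 15259 genes that met this minimum, and 7 were not. TPM measures transcript abundance with the length of the transcript taken out, so that levels can be set side by side between genes. The rule for membership uses symbols, and measured values enter it only in the choice between the Hoxd4 rows.

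Hox genes encode homeodomain transcription factors that give cells of the embryo their position along the head-to-tail axis. Genes with low paralogue numbers, at the 3′ end of a cluster, are used first and reach farthest towards the hindbrain, while genes with high numbers, at the 5′ end, are restricted to more caudal levels; this order is known as collinearity. In the spinal cord the genes of middle paralogue number mark cervical and thoracic levels and those of paralogue group 10 and above lumbar and sacral levels, and they specify the columns and pools of motor neurons together with cofactors of the TALE homeodomain class (Pbx, Meis and Pknox).

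The study deleted Tardbp, the gene of the RNA-binding protein TDP-43, in cells that express Cre recombinase from the promoter of the astrocyte gene Gfap. Control mice were Tardbp-fl/fl without Cre, cHet mice carried Gfap-Cre with Tardbp-fl/+, and cKO mice carried Gfap-Cre with Tardbp-fl/fl. All were C57BL6, aged 3 months, with 4 mice in each group, 2 male and 2 female by their labels. The libraries held bulk RNA of the spinal cord, so that they mix all cell types of the tissue, and the cord level that was taken is not given in the sources used here. No group carried Cre without a floxed allele; cHet mice carry the same Cre as cKO mice and control mice carry none. Tardbp had a level of 171 ± 6.73 TPM in control mice, 170 ± 8.64 TPM in cHet mice and 148 ± 5.06 TPM in cKO mice (SD, n = 4 each), and fell in cKO against control by 0.20 on the log2 scale (limma, Benjamini-Hochberg adjusted p = 0.0113). The markers of other regions were low: of 10 genes of forebrain, midbrain and hindbrain, 4 reached a mean of 1 TPM, and the summed level of the list was 7.36 to 9.45 TPM in every mouse. Of 8 markers of dorsal root ganglion neurons, 1 reached 1 TPM.

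Hox transcripts were abundant in adult cord, and their level followed the paralogue number in each cluster. Each cluster had its highest level at a single gene of group 7 or 8, and the members of groups 1, 12 and 13 had means below 4 TPM. The profile was not smooth: Hoxa4, Hoxa6, Hoxb4, Hoxb7, Hoxc5, Hoxc9, Hoxd4 and Hoxd12 each had a lower mean than both neighbours in their cluster. Hoxb8 had the highest mean level of all members at 182 TPM (mean of 12 mice). Its counterparts were Hoxc8 at 96.9 TPM, Hoxa7 at 74.9 TPM and Hoxd8 at 42.8 TPM, the highest member of the HoxC, HoxA and HoxD cluster. The lowest of the 12 Hoxb8 values, 164 TPM, lay above the highest Hoxc8 value of 108 TPM, and the lowest Hoxc8 value, 89.4 TPM, lay above the highest Hoxa7 value of 79.5 TPM. The next in order, Hoxb6 at 62.1 TPM, reached 71.3 TPM in 1 mouse and so overlapped Hoxa7, whose lowest value was 67.0 TPM. By cluster, the summed level in control mice was 408 ± 7.71 TPM for HoxB, 205 ± 3.37 for HoxC, 199 ± 5.34 for HoxA and 102 ± 5.86 for HoxD (SD, n = 4 mice). The means of HoxA and HoxC differed by less than the SD of HoxA.

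**Figure D1:**
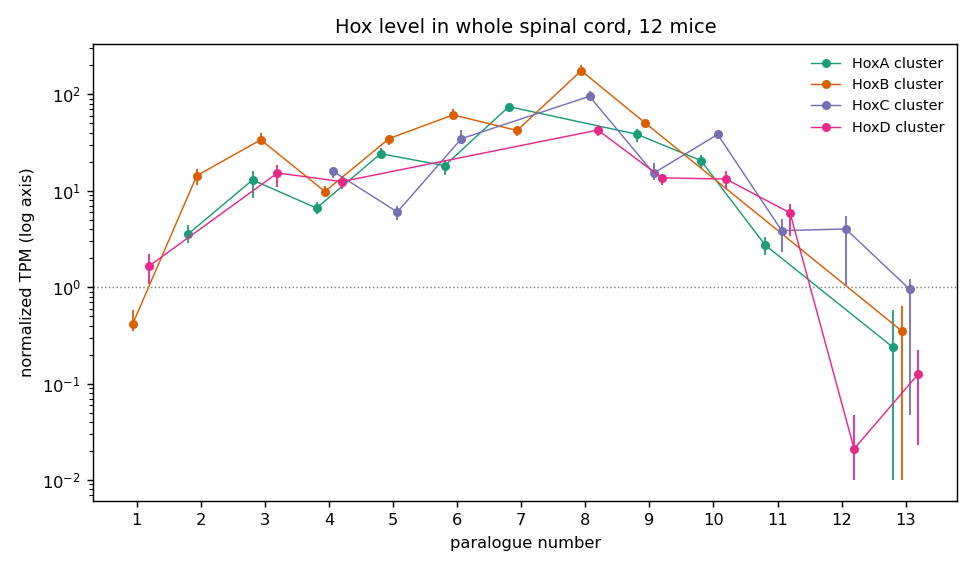
Level of 38 Hox genes against paralogue number, with one line per cluster. Points are medians of 12 mice in normalized TPM on a log axis, vertical lines run from the lowest to the highest mouse, values under 0.01 are drawn at 0.01, and the dotted line marks 1 TPM. Each cluster peaks at number 7 or 8, and the members of groups 12 and 13 have the longest lines.

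The rostral members of groups 1 to 3 covered a wide range. Hoxb1, which patterns the embryonic hindbrain, had a mean of 0.444 TPM, and Hoxd1 had 1.67 TPM, just above the minimum of 1 TPM; Hoxc13 at 0.826 TPM was the member just below it. Hoxa2 and Hoxb2, which act in hindbrain segments and the neural crest, had 3.60 and 14.2 TPM. The group 3 genes lay higher, at 12.4 TPM for Hoxa3, 34.4 TPM for Hoxb3 and 14.8 TPM for Hoxd3.

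The 15 members of groups 4 to 8 held most of the Hox signal, with 68.2% to 70.7% of the summed Hox TPM in every mouse. In group 4, which marks the cervical cord, means were 6.66 TPM for Hoxa4, 9.90 for Hoxb4, 15.7 for Hoxc4 and 12.4 for Hoxd4. Group 5 includes Hoxa5 and Hoxc5, needed for phrenic motor neurons, at 24.6 and 6.07 TPM, and Hoxb5 at 34.4 TPM. Group 6 includes Hoxc6, a gene of brachial motor neurons, at 35.8 TPM, with Hoxa6 at 18.4 TPM and Hoxb6 at 62.1 TPM. In group 7, Hoxb7 was at 41.9 TPM beside Hoxa7. The 3 genes of group 8 alone made up 31.7% to 35.1% of the summed Hox TPM.

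Past group 8 the decline differed in steepness between clusters. In group 9, which includes the thoracic gene Hoxc9, means were 50.5 TPM for Hoxb9, 38.3 for Hoxa9, 15.7 for Hoxc9 and 13.5 for Hoxd9. Group 10, whose members specify lumbar motor neurons, stood at 38.3 TPM for Hoxc10, 20.2 for Hoxa10 and 13.2 for Hoxd10. In HoxC, Hoxc10 was above Hoxc9 in all 12 mice, while Hoxa10 was below Hoxa9 in all 12. From group 11 on the levels were low, at 2.72 TPM for Hoxa11, 3.79 for Hoxc11, 5.68 for Hoxd11 and 3.76 for Hoxc12. The most caudal members, Hoxa13, Hoxb13, Hoxc13, Hoxd12 and Hoxd13, had means of 0.255, 0.365, 0.826, 0.0185 and 0.107 TPM.

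Before the genotypes are compared, 2 libraries need to be set apart by these caudal genes: control replicate 3 and cHet replicate 3, both from females. Among the tested genes Hoxc12 had the lowest share of its 12-mouse median in both, at 26.3% and 29.2%. It was at 3.77, 4.52, 1.06 and 3.95 TPM in control mice 1 to 4, at 4.66, 3.34, 1.17 and 5.10 TPM in cHet mice and at 5.43, 4.44, 3.59 and 4.08 TPM in cKO mice. The higher value of these 2 mice, 1.17 TPM, was far below the lowest of the other 10, 3.34 TPM. The other 4 females were not low, with 3.95 TPM in control, 5.10 TPM in cHet and 5.43 and 3.59 TPM in cKO.

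Other caudal genes, in HoxC, HoxA and HoxD, showed the same libraries at the bottom. Hoxc13 was at 1.03, 1.10, 0.0469 and 1.04 TPM in control, at 0.903, 0.920, 0.183 and 1.22 TPM in cHet and at 0.974, 0.690, 0.790 and 1.01 TPM in cKO. Hoxa13 was listed at 0 in these 2 mice and between 0.102 and 0.579 TPM in the other 10. Hoxd11, which acts in the lumbar cord and the limb, was at 5.87, 6.68, 3.37 and 5.07 TPM in control, at 7.22, 6.85, 3.996 and 6.13 TPM in cHet and at 6.25, 5.93, 5.42 and 5.40 TPM in cKO. Control replicate 3 and cHet replicate 3 were thus the lowest pair of all 12 for Hoxd11 too.

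From group 10 on the shortfall grew with paralogue number, though not for every gene. As a percent of the 12-mouse median, the members of groups 4 to 8 were at 98.8% in control replicate 3 and 96.7% in cHet replicate 3 (median over 15 members). As medians over 3 members each, group 10 was at 84.4% and 86.3% and group 11 at 59.8% and 68.1%. In group 11, Hoxa11 was at 88.1% and 85.2%, near the values of group 10, while Hoxc11 and Hoxd11 were at 57.1% to 68.1%. These 2 mice were the 2 lowest of 12 for all 3 members of group 10, for 2 of 3 in group 11 and for 4 of 6 in groups 12 and 13, but for only 1 of 27 in groups 1 to 9 (Hoxd9). The exceptions in groups 11 to 13 were Hoxa11, Hoxd12 and Hoxd13. The summed level of groups 12 and 13 was 1.13 and 1.47 TPM in these mice and 4.80 to 7.78 TPM in the other 10. These ranks and sums include the genes by which the 2 mice were picked, so they are a description only. The caudal share, which is the part of the summed Hox TPM held by groups 10 to 13, was 7.94% and 8.04% in them and 8.77% to 10.3% in the others.

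**Figure D2:**
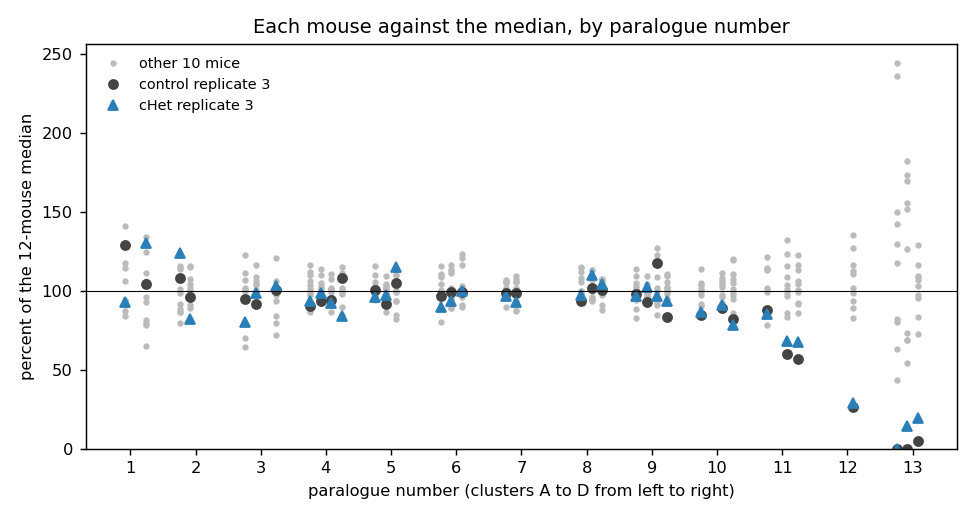
Each mouse as a percent of the 12-mouse median, against paralogue number, for 36 members with a mean of at least 0.2 TPM. Black circles are control replicate 3, blue triangles cHet replicate 3 and grey points the other 10 mice; the black and blue symbols lie on both sides of 100% up to group 9, between 80.5% and 130%, and all below 100% from group 10 on.

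The covariation of the caudal genes was much higher with the same libraries than without them. Across the 12 mice, after the group mean was taken off, the 4 tested members of groups 11 and 12 had a median pairwise Pearson's r of 0.82, given as a description over points that share a library. Without the 2 mice it was 0.22, but they were picked for low values of these caudal genes, so that a fall was built into the choice. With the members of groups 4 to 8, the median r of the same genes was 0.12. The summed level of 12 motor neuron genes was 141 TPM in control replicate 3 and 160 TPM in cHet replicate 3, the lowest of their groups, whose highest values were 178 and 169 TPM. The summed level of the dorsal root ganglion list was 2.57 TPM in control replicate 3, the lowest of its group, and 4.19 TPM in cHet replicate 3, the highest of its group. Control replicate 3 was also the lowest control for the summed neuronal, endothelial and pericyte, Schwann cell and skeletal muscle lists and the highest for the oligodendrocyte list, and cHet replicate 3 was at neither end of its group for these 5 lists. The part of any difference in tissue content in the low caudal Hox levels was not tested.

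The caudal share did not separate the genotypes. Its mean was 9.40 ± 1.03% for control mice, 9.48 ± 0.974% for cHet mice and 9.17 ± 0.394% for cKO mice (SD, n = 4 each). The difference of cKO from control was -0.24 percentage points, that of cHet from control was 0.08 and that of cKO from cHet was -0.31, all smaller than the spread within groups. Without control replicate 3 the difference of cKO from control was -0.73 points, and without control replicate 1 it was 0.07, so that its direction and size depended on single control mice. The cKO group holds none of the 2 low libraries and had the smallest SD.

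Between cKO and control, Hoxb8 was the 1 Hox gene of 32 that passed the test, and it was higher in cKO. Over all 15259 genes tested, 9% were called in this comparison, 5.75% higher and 3.25% lower, so that the count among Hox genes was not above that of all genes. Hoxb8 acts in the dorsal horn of the spinal cord, and mice that lack it are known for excess grooming. It was at 172, 171, 164 and 176 TPM in control mice 1 to 4, at 174, 185, 171 and 176 TPM in cHet mice, and at 190, 202, 197 and 203 TPM in cKO mice. All 4 cKO mice lay above all 8 others. The mean of the cKO mice was 198 ± 5.75 TPM, beside 171 ± 4.89 TPM for control and 177 ± 6.22 TPM for cHet mice (SD, n = 4 each).

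Hoxb8 rose in cKO against control by 0.21 ± 0.03 (SE) on the log2(TPM + 0.5) scale, which is 16.0% on the scale of TPM (limma adjusted p = 0.00227). Against cHet it rose by 0.17 ± 0.03 (limma adjusted p = 0.0129), in a comparison that shares the cKO mice and in which 5.01% of all genes were called, 2.41% higher and 2.61% lower. Between cHet and control the difference was 0.05 ± 0.03 (limma adjusted p = 0.651). An exact permutation test over the 70 ways to divide 8 mice gave a two-sided p of 0.0286 for cKO against control, the smallest such a test can give. In bulk RNA, more cells of a type and more RNA per cell cannot be told apart. Without control replicate 3 and cHet replicate 3, the rise was 0.19 against control and 0.15 against cHet (limma adjusted p = 0.0114 and 0.0454).

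**Figure D3:**
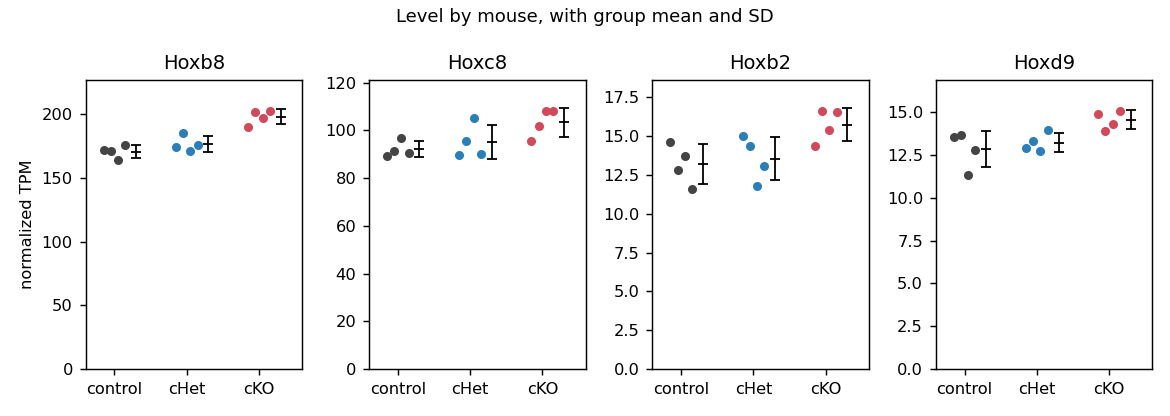
Normalized TPM of Hoxb8, Hoxc8, Hoxb2 and Hoxd9 in each mouse (points), by genotype, with the group mean and SD (black); each axis starts at 0. The 4 cKO values of Hoxb8 lie between 190 and 203 TPM, above the highest control value of 176 TPM, and the groups overlap for Hoxc8 and Hoxb2.

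Hoxb8 (ENSMUSG00000056648) lies on chromosome 11 at 96281905 to 96285315 on the plus strand of GRCm38, between Hoxb9 and Hoxb7, and its gene model overlaps no other gene on either strand in GENCODE M21. Its 250 bases upstream of the RefSeq start (GRCm38.p6, chr11:96281655-96281904, plus strand) are printed because this is the member whose level changed; capitals mark TTTAT on the plus strand and ATAAA, its reverse complement, the core letters bound by the caudal-type factors of the Cdx family.
Hoxb8 upstream: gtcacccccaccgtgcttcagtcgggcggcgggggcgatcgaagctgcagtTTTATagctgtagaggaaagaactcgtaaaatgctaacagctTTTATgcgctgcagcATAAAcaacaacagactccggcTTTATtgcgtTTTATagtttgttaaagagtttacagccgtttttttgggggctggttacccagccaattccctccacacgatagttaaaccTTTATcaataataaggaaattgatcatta
The stretch holds 5 copies of TTTAT and 1 of ATAAA. Of 32841 RefSeq promoter windows of 300 bases (250 before the start and 50 after), 0.502% hold 6 or more on both strands together, and among Hox genes Hoxb8 and Hoxd4 do. At least 1 copy is in 40.01% of all windows and in 37.5% of 24 windows of the 22 Hox genes found in that table. The longer match TTTATG (either strand) had 2 copies in the Hoxb8 window and was in 20.8% of Hox windows against 11.85% of all. Hox windows held a median of 14.5 CpG dinucleotides against 7 in all windows, and CCAAT (either strand) was in 62.5% against 37.4%. The other motifs searched differed less: TGATNNAT was in 16.7% against 8.85%, TATAAA in 16.7% against 13.6% and GGGCGG in 41.7% against 35.7%. These are matches of letters, not measured sites. Cdx1 and Cdx2 were listed at 0 in all 12 mice.

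The Hox clusters also contain microRNA genes, and the Hoxb8 messenger RNA is a well-known case of an animal transcript that a microRNA, miR-196, pairs with along nearly its whole length. The mature sequences from RefSeq are shown to relate Hoxb8 to the other members, with the seed (bases 2 to 8) in capitals; miR-196a and miR-196b share a seed, as do miR-10a and miR-10b.
miR-196a-5p: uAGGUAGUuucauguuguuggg
miR-196b-5p: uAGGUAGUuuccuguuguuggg
miR-10a-5p: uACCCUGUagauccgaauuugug
miR-10b-5p: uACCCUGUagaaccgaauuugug
Hoxb8 site: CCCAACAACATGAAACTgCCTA
In the Hoxb8 site, capitals mark bases that form Watson-Crick pairs with miR-196a and the lower-case g marks a G-U pair. The genes of miR-196a lie in HoxB (chr11:96265187-96265208, plus strand) and HoxC (chr15:102973365-102973386, plus strand), that of miR-196b in HoxA (chr6:52230129-52230150, minus strand), that of miR-10a in HoxB (chr11:96317186-96317208, plus strand) and that of miR-10b in HoxD (chr2:74726074-74726096, plus strand).

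The Hoxb8 site, at chr11:96284888-96284909 on the plus strand in the 3′ UTR (GRCm38), pairs with miR-196a by 21 Watson-Crick pairs and 1 G-U pair over 22 bases. It was the 1 site with as many pairs among 20931 3′ UTRs, whose median was 13, and the next Hox gene, Hoxd8, had 15. The exact seed match, ACTACCT, was in the 3′ UTR of 9 of 39 Hox genes (23.1%) against 6.10% of 21014 genes, at a median length of 966 bases against 961. The match to the miR-10 seed, ACAGGGT, was in 4 of 39 (10.3%) against 12.5%. Of the 9 genes with ACTACCT, 7 were tested, and their differences between cKO and control ran from -0.02 for Hoxa4 to 0.17 for Hoxc8 on the log2 scale, with none called. The level of the microRNAs was not analysed here.

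The other members of the HoxB cluster were all on the same side as Hoxb8, and none of them passed the test. All 8 tested HoxB members had a higher mean in cKO than in control, with log2 differences from 0.07 for Hoxb3 to 0.25 for Hoxb2. Hoxb4 was at 9.07, 9.91, 9.21 and 9.75 TPM in control and at 10.3, 11.2, 10.1 and 10.8 TPM in cKO, so that its groups did not overlap (log2 difference 0.15 ± 0.05, limma adjusted p = 0.0982). Hoxb5 was at 34.4, 31.9, 31.8 and 35.3 TPM in control and at 36.3, 36.1, 38.0 and 35.6 TPM in cKO, again without overlap (log2 difference 0.13 ± 0.05, limma adjusted p = 0.160). Hoxb7 and Hoxb9 did not overlap either, with 39.9 ± 2.28 against 44.4 ± 0.985 TPM and 48.3 ± 0.997 against 51.3 ± 1.20 TPM in control and cKO (SD, n = 4 mice). Hoxb2 and Hoxb6 overlapped between the groups, as did Hoxb3. Under rescaling without the mitochondrially encoded genes, the log2 differences of Hoxb5, Hoxb7 and Hoxb9 were 0.08, 0.10 and 0.03, from 0.13, 0.15 and 0.09. Hoxb2 went from 13.2 ± 1.29 TPM to 15.7 ± 1.07 TPM (limma adjusted p = 0.0991), and was called only when sex was a covariate (limma adjusted p = 0.0408).

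In HoxC, all 8 tested members also had a higher mean in cKO, with none called. Hoxc8, which specifies motor pools of the brachial cord, was at 89.4, 91.5, 97.0 and 90.6 TPM in control, at 89.6, 95.4, 105 and 90.3 TPM in cHet and at 95.6, 102, 108 and 108 TPM in cKO. The highest control mouse lay above the lowest cKO mouse, and 1 cHet mouse lay among the cKO values. The log2 difference of cKO from control was 0.17 ± 0.06 (limma adjusted p = 0.0877); the limma adjusted p was 0.0481 without cKO replicate 1, 0.0472 without cHet replicate 3 and 0.0446 without control replicate 3 and cHet replicate 3 together. Hoxc6 was at 32.6 ± 1.55 TPM in control and 38.2 ± 4.03 TPM in cKO (limma adjusted p = 0.106). The gene model of Hoxc5 spans Hoxc6, Hoxc8 and Hoxc9 and overlaps part of Hoxc10 on the same strand. The split of reads between these genes is therefore uncertain.

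Hoxc11 and Hoxc12 had the largest differences and the largest errors among the tested HoxC genes. Hoxc12 differed by 0.47 ± 0.41 and Hoxc11 by 0.25 ± 0.19 between cKO and control on the log2 scale (limma adjusted p = 0.554 and 0.487). Without control replicate 3 and cHet replicate 3 the differences were 0.08 ± 0.16 and 0.11 ± 0.13. Both values therefore rested in large part on the low control library.

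The HoxA and HoxD clusters were mixed. In HoxA, 6 of 9 tested members had a higher mean in cKO, and in HoxD 4 of 7. Hoxd4 is counted as lower by the row used, though its other row was higher in cKO. Hoxa7 was at 79.5, 73.7, 73.6 and 72.0 TPM in control, at 72.8, 79.2, 72.1 and 67.0 TPM in cHet and at 75.5, 78.3, 76.1 and 78.8 TPM in cKO. Hoxd8 was at 41.6, 41.7, 42.8 and 37.3 TPM in control, at 42.4, 42.4, 44.4 and 45.8 TPM in cHet and at 45.1, 45.4, 45.8 and 38.9 TPM in cKO. For both genes the groups overlapped. The log2 differences between cKO and control were 0.05 ± 0.05 for Hoxa7 and 0.10 ± 0.06 for Hoxd8 (limma adjusted p = 0.621 and 0.369).

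Hoxd9 was the member outside HoxB whose cKO values all lay above the control values. It was at 13.5, 13.7, 11.4 and 12.8 TPM in control, at 12.9, 13.3, 12.7 and 13.9 TPM in cHet and at 14.9, 13.9, 14.3 and 15.1 TPM in cKO (log2 difference of cKO from control 0.18 ± 0.06, limma adjusted p = 0.0979). The highest cHet mouse lay just above the lowest cKO mouse. Control replicate 3 was the lowest of all mice for Hoxd9. When single mice were left out, its log2 difference of cKO from control ran from 0.12 to 0.21 (limma adjusted p between 0.0927 and 0.220). Hoxd1 was the single member with all cKO values below control, at 1.30, 1.36, 1.54 and 1.33 TPM against 2.07, 1.60, 1.73 and 1.85 TPM in control (limma adjusted p = 0.321). Hoxa11 was at 3.11, 3.13, 2.42 and 3.14 TPM in control, at 3.33, 2.80, 2.34 and 2.76 TPM in cHet and at 2.35, 2.41, 2.16 and 2.73 TPM in cKO. Its log2 difference between cKO and control was -0.24 ± 0.12 with all mice (limma adjusted p = 0.242) and -0.32 ± 0.10 without control replicate 3 and cHet replicate 3 (limma adjusted p = 0.110).

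Hoxd4 gave opposite answers by row. The row used, whose identifier is not in GENCODE M21, had a mean of 13.5 ± 0.841 TPM for control, 11.9 ± 0.999 TPM for cHet and 11.9 ± 1.27 TPM for cKO mice (SD, n = 4 each). The annotated row had 5.56 ± 0.733, 5.52 ± 1.31 and 7.73 ± 0.888 TPM. The log2 difference of cKO from control was -0.18 (limma adjusted p = 0.222) by the first and 0.44 (limma adjusted p = 0.0944) by the second. The locus overlaps Hoxd3 on the same strand, and no direction can be given for Hoxd4.

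**Figure D4:**
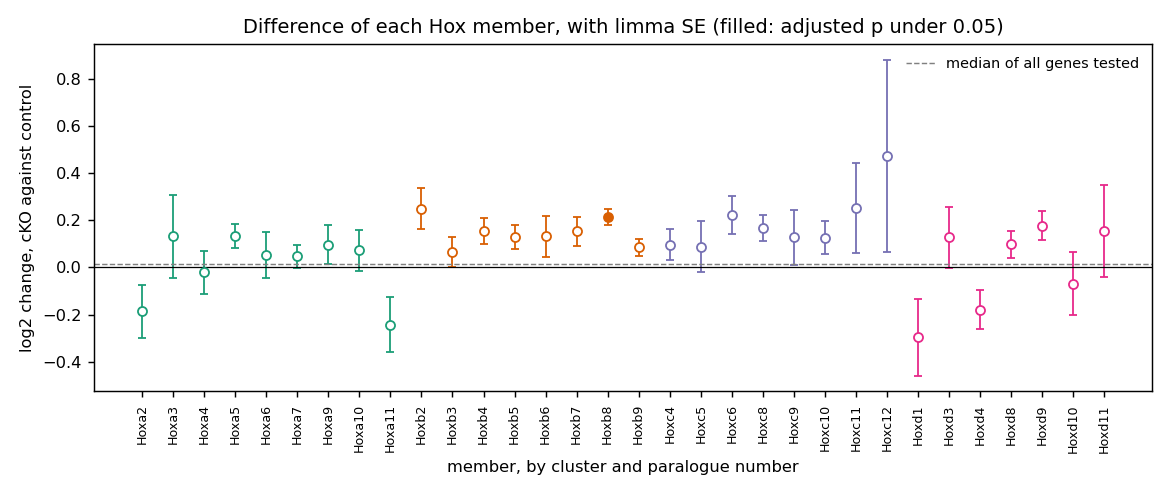
Log2 difference of cKO from control for the 32 tested members, ordered by cluster (HoxA green, HoxB orange, HoxC purple, HoxD pink) and paralogue number, with the SE of limma as bars. The filled point is Hoxb8, the 1 member called; all HoxB and HoxC points are above 0, and the dashed line is the median of all 15259 genes.

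Counted over the clusters, 26 of 32 members had a log2 difference above 0 between cKO and control, against 54.2% of all genes tested. The median of the 32 members was 0.13 against 0.01 for all genes. With the rows of each symbol summed, as for Hoxd4, 27 of 32 members lay above 0. The groups did not overlap in the higher direction for 6 members, 5 of them in HoxB, against 10.5% of all genes, and in the lower direction for 1 member against 6.59%. At an unadjusted limma p under 0.05 there were 10 members, against 22.8% of all genes. By band, the median difference was 0.13 for groups 4 to 8, 0.11 for group 9, 0.10 for groups 1 to 3 and 0.13 for groups 10 to 13. Without control replicate 3 the median was 0.01 for the 7 tested members of groups 10 to 13 and 0.12 for groups 4 to 8. Members of a cluster lie side by side and share regulation and, in places, reads, so they are not independent. Under rescaling without the mitochondrially encoded genes, the calls over all genes turned from 878 higher and 496 lower to 467 higher and 813 lower, while 25 of 32 Hox members, and all 8 of HoxB and all 8 of HoxC, had a difference above 0; their median was then 0.08 against -0.04 for all genes.

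In the authors' deposited table for cKO against control, which lists 38 of the 39 members, 4 had a q-value under 0.05 by the likelihood ratio test, against 9.42% of the rows of that table. They were Hoxb8 with q = 0.00164, Hoxb2 with q = 0.0266, Hoxc8 with q = 0.0419 and Hoxb5 with q = 0.0479 in the authors' deposited table. By the Wald test of the authors' deposited table Hoxd9 was a 5th, with q = 0.0367, against 10.2% of the rows. All of them were higher in cKO. The tests thus shared Hoxb8 and differed on Hoxb2, Hoxc8, Hoxb5 and Hoxd9. The log2 difference of Hoxb2 by limma, 0.25 ± 0.09 (SE), was no smaller than that of Hoxb8, 0.21 ± 0.03.

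Between cHet and control no Hox gene was called, and none of the 15259 genes was, so that the background was 0%. At an unadjusted limma p under 0.05 there was 1 member, Hoxb9, against 11.3% of all genes. A log2 difference above 0 was seen for 24 of 32 members against 55.2% of all genes. Under rescaling without the mitochondrially encoded genes it was seen for 14 of 32, and the median turned from 0.04 to -0.01. The median of all genes moved as well, from 0.01 to -0.04, and 22 of 32 members lay above it after this rescaling. In the values as deposited, 2 members were without overlap in the higher direction against 4.12%, and none in the lower direction against 2.1%. Hoxb9, a gene of thoracic levels, was at 48.1, 48.9, 47.0 and 49.3 TPM in control and at 49.4, 55.1, 51.7 and 51.8 TPM in cHet, without overlap (log2 difference 0.10 ± 0.04, limma adjusted p = 0.326; 0.05 under that rescaling). Hoxc6 also did not overlap, at 32.6 ± 1.55 TPM in control and 36.5 ± 3.50 TPM in cHet (limma adjusted p = 0.480). The authors' deposited table for this pair had no member with a q-value under 0.05 by either test.

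Between cKO and cHet, Hoxb8 was again the 1 member called of 32. At an unadjusted limma p under 0.05 there were 7 members, against 18.2% of all genes. A log2 difference above 0 was seen for 23 of 32 members against 52% of all genes. Besides Hoxb8, Hoxb4 and Hoxb5 had all cKO values above all cHet values, which 6.14% of all genes did, while no member had all cKO values below, as 5.33% of all genes did. The 2 genes had cHet means of 9.60 ± 0.389 and 33.3 ± 2.17 TPM and cKO means of 10.6 ± 0.478 and 36.5 ± 1.07 TPM. Hoxa2 lay lower in cKO, at 3.18 ± 0.320 TPM against 3.94 ± 0.581 TPM (log2 difference -0.27 ± 0.11, limma adjusted p = 0.233). Hoxb8 was also the 1 member under 0.05 in the authors' deposited table for this pair, with q = 0.0181 by the likelihood ratio test.

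The partners of the Hox proteins were well expressed, with a summed level of 192 to 212 TPM for 9 TALE cofactors in every mouse. None of the 9 was called in any of the 3 comparisons. The smallest p in cKO against control belonged to Meis1, at 11.9 ± 0.543 TPM in control and 9.91 ± 1.01 in cKO (limma adjusted p = 0.0657), and to Meis2, at 32.3 ± 2.41 and 35.8 ± 0.920 TPM (limma adjusted p = 0.0983). The 2 genes lay on opposite sides. Of 12 genes of motor neuron columns tested, none was called in any comparison; Slc18a3, the vesicular acetylcholine transporter, had a mean of 28.6 TPM in control and 31.1 TPM in cKO (limma adjusted p = 0.321).

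Retinoic acid sets Hox boundaries in the embryo. Of 13 tested genes of axial patterning and retinoic acid signalling, 2 were called in cKO against control, both higher in cKO. Over all genes tested, 9% were called in that comparison, 5.75% of them as higher out of all tested. Aldh1a1, an enzyme that makes retinoic acid from retinaldehyde, rose from 323 ± 28.7 TPM in control to 466 ± 14.7 TPM in cKO, with 347 ± 16.2 TPM in cHet (log2 difference 0.53 ± 0.06, limma adjusted p = 0.000196). It was also called against cHet, at a log2 difference of 0.42 ± 0.06 (limma adjusted p = 0.00112). The retinoic acid receptors Rara, Rarb and Rarg, and Rxra, Rxrb and Rxrg, were tested and not called. Any link of this list to Hoxb8 was not tested.

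Polycomb and Trithorax proteins hold Hox clusters silent or active. Of 21 such genes tested, 1 was called in cKO against control, where 9% of all genes were. Pcgf2, a subunit of Polycomb repressive complex 1, fell from 21.9 ± 1.48 TPM to 18.8 ± 1.10 TPM (log2 difference -0.21 ± 0.06, limma adjusted p = 0.0371). It was at 17.9 ± 0.452 TPM in cHet, where the difference from control was -0.28 ± 0.06 and was not called (limma adjusted p = 0.129). It was not called without control replicate 2, 3 or 4 or without cKO replicate 1, 3 or 4, with limma adjusted p between 0.0541 and 0.106. Of 6 tested non-Hox genes beside the clusters, Skap2, next to HoxA, rose from 31.1 ± 1.24 TPM to 35.9 ± 2.72 TPM (limma adjusted p = 0.0496). It was not called without any 1 of the control mice, without cHet replicate 1, 2 or 4, or without cKO replicate 1, 2 or 3, with limma adjusted p between 0.0513 and 0.120.

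Markers of several cell types moved with the cKO genotype. Over all genes tested, 5.75% were called higher and 3.25% lower in cKO than in control. Of 8 oligodendrocyte genes tested, 6 were lower in cKO than in control, and the summed level of the list was 17130 to 19509 TPM in cKO against 20568 to 21513 TPM in control. Of 10 neuronal genes 3 were higher, with sums of 4611 to 4912 TPM in cKO and 4397 to 4630 TPM in control. Of 8 astrocyte genes 3 were higher and 2 lower, with sums of 4536 to 4961 TPM against 3907 to 4131 TPM, and of 6 microglial genes 4 were higher, with sums of 216 to 231 TPM against 178 to 187 TPM. Of 6 tested genes of meningeal fibroblasts 2 were higher, of 4 of Schwann cells 1 was lower, and of the endothelial and pericyte, dorsal root ganglion, skeletal muscle and brain region lists none of the tested genes was called. The part of these shifts in the higher Hoxb8 level was not tested.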

How the data were processed

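Normalized TPM values of 36121 genes in 12 libraries were deposited by the authors as a signal that is never negative. Per the submitters' processing notes, kallisto 0.44.0 and sleuth 0.30.0 were used with GRCm38. Library sums ran from 954895 to 1048381; TPM does not carry the number of reads, so precision from counting cannot be given. The authors' deposited tables of comparisons hold p-values and q-values, whose p and q columns were used, and effect estimates and scores, which were not. Strandedness is not given in the sources used here, so genes with an overlapping or antisense partner are uncertain. Among them are Hoxa3, Hoxa7, Hoxb2, Hoxb3, Hoxb5, Hoxb6, Hoxc5, Hoxd3, Hoxd4 and Hoxd8.

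Values were tested as log2(TPM + 0.5) with limma 3.58.1 (R 4.3.3; trend, two-sided, all 12 mice, no covariate), for genes averaging 1 TPM or more, with Benjamini-Hochberg adjustment over all 15259. A gene was called at an adjusted p under 0.05; fold changes of low genes are understated. The step was tested on simulated data. Mice count as replicates; replicate numbers follow deposition order. Every member is accounted for; members called and the highest of each cluster are given by mouse, and from each other list the called genes with the smallest adjusted p or values of those nearest to it, fewer for cell type markers. A member and a listed gene are counted but their values are left out of the text and figures. The members and lists were chosen with earlier results of these data known. 3′ UTRs came from GENCODE M21, promoters and microRNAs from RefSeq. Alternatives covered pseudocount, filter, rescaling, duplicate rows, sex, weights and omitted mice.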

Additional observations from a re-analysis of the deposited data

Results flagged for a closer look

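Of 117 member-by-group sets of 4 mice, 12 held a mouse whose gap to its nearest neighbour took up most of the range of the set by Dixon's criterion; chance alone sets apart about 1 set in 20. Of these mice 6 were low and 6 high.

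Control replicate 3 was the low mouse in 3 sets, all of caudal genes: Hoxa10 at 17.4 TPM, with the other controls at 20.5 to 20.8, Hoxa11 at 2.42 TPM (others 3.11 to 3.14) and Hoxc13 at 0.0469 TPM (others 1.03 to 1.10). The criterion set cHet replicate 3 apart in no set, and the low Hoxc12 value of control replicate 3 did not meet it. Among other caudal genes, Hoxc10 was high in control replicate 1 at 41.1 TPM, Hoxd13 was high in control replicate 4 at 0.167 TPM, and Hoxd12 was listed at 0 in cHet replicate 2.

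The remaining sets were spread over groups 1 to 9. Hoxb1 was high in cHet replicate 1 at 0.543 TPM, as was Hoxc6 in the same mouse at 41.8 TPM. Hoxb3 was high in cKO replicate 2 at 39.4 TPM. In cKO replicate 4, Hoxc9 was high at 18.6 TPM and Hoxd8 low at 38.9 TPM, and Hoxd3 was low in control replicate 4 at 10.98 TPM (others 15.3 to 15.7).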

How the results depend on the processing

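Hoxb8 stayed called in all 24 alternatives, with an adjusted p of 0.0012 to 0.0114 in cKO against control and 0.00484 to 0.0466 in cKO against cHet (limma). The number of Hox members called in cKO against control was 1 and became 2 with sex as a covariate (Hoxb2 added) and 2 without control replicate 3 and cHet replicate 3 together (Hoxc8 added), an alternative chosen after seeing the data; it was 1 to 2 when single mice were left out. It was 0 in cHet against control and 1 in cKO against cHet under all 25 settings. Members above 0 numbered 25 to 27 of 32 in cKO against control, 14 to 28 in cHet against control and 20 to 26 in cKO against cHet. The caudal share of cKO minus control ran from -0.73 to 0.07 points when single mice were left out, and no alternative moved a difference in caudal share by as much as the SD pooled over the 3 groups, 0.848 points, though the shift without control replicate 3 was larger than the SD of the cKO mice alone. Over all genes the calls in cKO against control, 1374, were 814 without cKO replicate 2, 890 without cKO replicate 4, 907 without control replicate 2 and 877 without control replicate 3 and cHet replicate 3 together; that pair's omission gave 507 in cKO against cHet in place of 765. In cHet against control the count of 0 became 2 with lower filters and 1 without control replicate 2. Skap2 lost its call in 17 and Pcgf2 in 9 of 24 alternatives. No paired analysis was possible because the replicate numbers only name the mice. Depth is unknown, so the precision of members under 1 TPM cannot be given.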
